A study of Drosophila melanogaster with 8 samples.

Results

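Cells in which the Twist gene was activated were set directly against cells in which the Snail gene was activated, over all genes and without a control library. The comparison takes 4 of the 8 libraries of the series, chosen by their titles. The Twist group (2 libraries) comprised S2R+ cells that received the plasmid Actin:dCas9-VPR together with a pool of 5 guide RNAs aimed upstream of twi. The Snail group (2 libraries) received the same activator with 5 guide RNAs aimed upstream of sna. The remaining libraries, 2 with both guide pools and 2 with control guides directed at a luciferase reporter promoter (called non-targeting in the treatment protocol), did not enter the comparison; they give levels to read beside it, took part in the scaling of the printed levels and entered alternative fits named as such. S2R+ is an established Drosophila cell line with features of blood cells, and dCas9-VPR is a Cas9 that cannot cut DNA joined to a transcriptional activator. Every group carried dCas9-VPR, so by the labels the groups differed in their guides alone. The series calls the libraries of a group biological replicates. The sources used here do not give the share of cells that took up the guides, and in bulk RNA fewer cells of a type and less RNA per cell cannot be told apart.

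Twist, of the basic helix-loop-helix (bHLH) family, directs fly embryonic cells to become mesoderm and switches on genes of that tissue. Snail is a zinc-finger factor of the same embryonic cells, known mainly as a repressor that keeps ectodermal genes off in the mesoderm. Both bind short E-box motifs, and in the embryo they act on overlapping sets of genes, with the FGF receptor Heartless (htl) and its ligands among the best known.

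The deposited values were raw counts per gene. Total counts were 13141804 and 13351166 in the Twist libraries and 10951721 and 12051135 in the Snail libraries. Levels are given as CPM, a gene's counts scaled to a common library total with TMM factors. A gene was called when its Benjamini-Hochberg adjusted p in edgeR's quasi-likelihood test of the 4 libraries was under 0.05, and every adjusted p below is from that fit unless another is named. The variance of the difference between libraries, relative to counting, was 6.49 for the Twist pair and 3.59 for the Snail pair, against 13.1 to 18.7 between a Twist and a Snail library. It was 24.4 for the control pair. A fit of all 8 libraries, which estimates 1 spread over all groups, called 87 genes. The cell line's labels were read against blood cell markers: srp, the GATA factor of blood cells, stood at 127 to 151 CPM, Pxn at 88.3 to 93 CPM and the scavenger receptor gene crq at 163 to 183 CPM, whereas Hml reached only 1.14 CPM and nimC1 0.18 CPM in the 4 libraries.

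Each targeted gene was high only where its own guides were used. Counts of twi (FBgn0003900; BDGP6.54 chromosome 2R, positions 22985374 to 23048325) were 345 and 384 with Twist guides, and 0 in both Snail libraries. That is 27.2 ± 1.36 CPM (SD, n = 2) with Twist guides, at least 210-fold higher than with Snail guides, taking a floor of 3 counts over the Snail group. Counts of sna (FBgn0003448; chromosome 2L, positions 15476593 to 15478260) were 0 and 1 with Twist guides, against 1079 and 1218 with Snail guides. The Snail-to-Twist ratio was 2660, with a 95% counting interval of 477 to 105000. Neither factor's activation was accompanied by counts of the other above that level. Annotated exons of twi overlap those of CG9897 on the opposite strand (10.3% of exon bases) and of CR42742 on the same strand (12.2%), and whether the counting used strand is not stated in these sources.

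The transcriptomes differed at 705 of 7895 tested genes (8.93%), of which 557 were higher (7.06%) and 148 were lower (1.87%) with Twist guides than with Snail guides. Most differences were small. The median log2 fold change was 0.41 among the genes called higher and -0.32 among those called lower, and 407 and 112 of them lay under 1.5-fold. A difference of more than 2-fold was found for 60 higher and 20 lower genes, and of more than 8-fold for 15 and 6. Against a minimum fold of 1.5, 55 genes were called (0.697%), of which 46 were higher (0.583%) and 9 lower (0.114%). The number of calls was 682 without Twist replicate 1, 473 without Twist replicate 2, 353 without Snail replicate 1 and 305 without Snail replicate 2. In all 4 of these fits and in DESeq2, 207 genes were called higher and 20 lower, 41 and 9 of them by more than 2-fold.

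**Figure D1:**
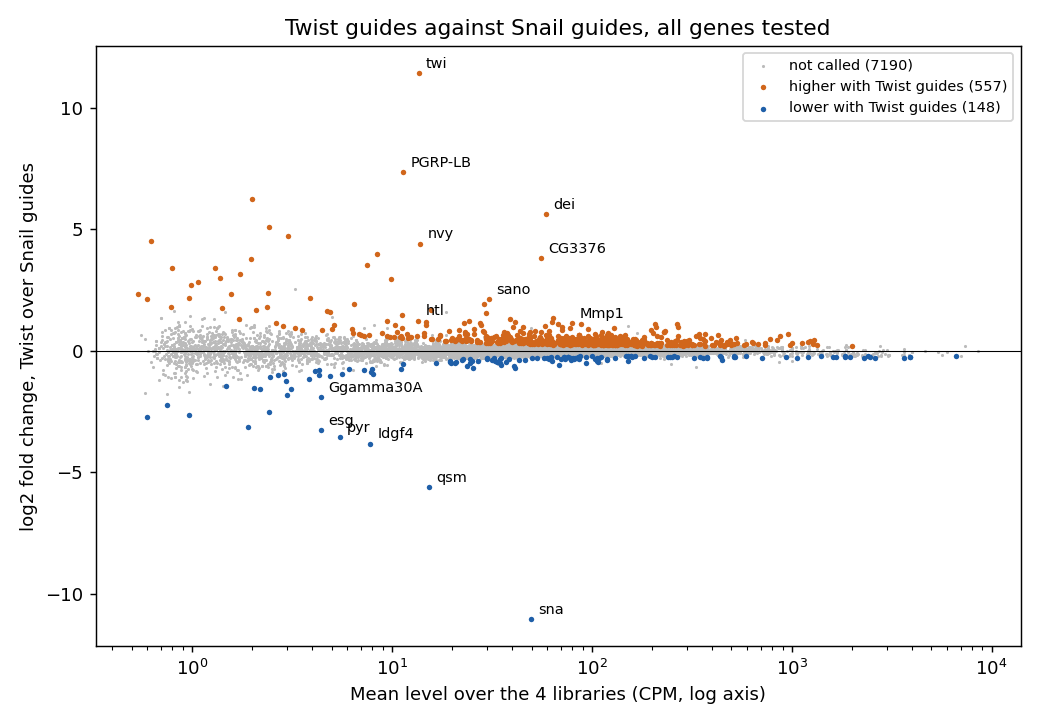
Log2 fold change (Twist over Snail guides, vertical axis) against the mean level over the 4 libraries (CPM, log axis) for the 7895 genes tested, with the 557 higher genes in orange and the 148 lower genes in blue. The fitted values of twi and sna depend on the prior count, since one side has 0 or 1 counts; most called genes lie within 1.5-fold of equality.

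Many of the genes that were higher with Twist guides have long transcripts. Of 252 genes with a longest annotated transcript over 8 kb, 100 were called higher (39.7%) and 2 lower (0.794%), whereas of 1111 genes under 1 kb 16 were higher (1.44%) and 27 lower (2.43%). The median log2 fold change was 0.25 over 8 kb, 0.11 from 4 to 8 kb, 0.01 from 2 to 4 kb, -0.04 from 1 to 2 kb and -0.05 under 1 kb. Across 7679 genes, which share the same libraries and are not replicates, Spearman's correlation of the fold change with transcript length was 0.31. Relative to the mean of the 4 libraries, the correlation of a gene's level with length was 0.37 and 0.11 in the Twist libraries and -0.31 and -0.19 in the Snail libraries. The length trend and the guides cannot be told apart in 4 libraries. After a trend on length was removed from each library, 517 of 7679 genes were called (6.73%), of which 353 were higher (4.6%) and 164 lower (2.14%), a split of 68.3% higher against 79% before, and 419 genes were called in both fits. Counts after length correction are given for the gene groups below, to be read against these shares, and counts before it against 7.06% higher and 1.87% lower. Members of these groups were written with earlier results of these data known, so the counts are a description. Some genes, dei among them, are counted in more than 1 group.

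**Figure D2:**
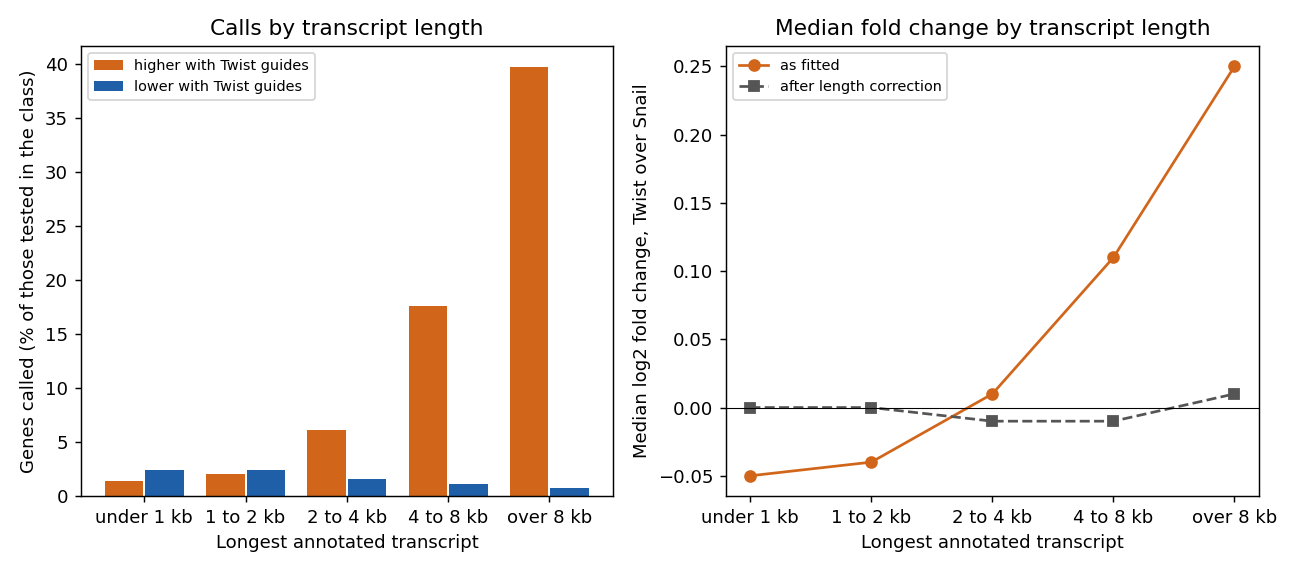
Left, share of the tested genes of each transcript length class called higher (orange) or lower (blue) with Twist guides; right, median log2 fold change (Twist over Snail) per class as fitted (circles) and after length correction (squares). The share called higher climbs to 39.7% over 8 kb, and the median of that class moves from 0.25 to 0.01 with the correction.

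After twi itself, the largest differences upward were in genes of several functions. PGRP-LB, whose product cleaves bacterial peptidoglycan and dampens immune signalling, stood at 26.1 and 19.2 CPM with Twist guides and at 0.18 and 0.0834 CPM with Snail guides, a ratio of 174 (counting interval 59.3 to 847; adjusted p = 6.3e-09). dei, now named tx (positions 26440778 to 26448991 of chromosome 3R), encodes a bHLH factor of tendon cells and stood at 134 and 97.3 CPM with Twist guides against 2.61 and 2.08 CPM with Snail guides, so that the log2 fold change was 5.63 with an SE of 0.24 (adjusted p = 1.9e-05; log2 fold changes below are also followed by ± SE). The lowest Twist library lay far above the highest Snail library in both genes, but a lack of overlap was a condition for the choice of the largest differences.

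ect reached 4.11 and 3.82 CPM with Twist guides and had 1 count over both Snail libraries (ratio 91.6, counting interval 16.1 to 3650). acj6, a POU-domain factor gene of olfactory neurons, was counted 68 and 59 times with Twist guides, against 0 and 3 times with Snail guides (ratio 36.6, interval 12.2 to 180). The fitted fold changes of these low genes depend on the prior count and are not given.

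Among genes with more counts, nvy, a transcriptional co-repressor gene, had 26 and 27 CPM with Twist guides against 1.26 and 1.25 CPM with Snail guides (4.39 ± 0.18; adjusted p = 6e-10). CG3376 had 107 and 102 CPM with Twist guides against 6.93 and 7.92 CPM with Snail guides (3.82 ± 0.10; adjusted p = 1.5e-12), the smallest p of the genes higher with Twist guides. The replicate libraries of these genes lay close together. CCKLR-17D3, a cholecystokinin-like receptor gene, differed by 3.99 ± 0.35 (4.97 without Snail replicate 1, 3.37 without Snail replicate 2) and CG6231 by 3.51 ± 0.25 on the log2 scale. Fewer counts lay behind CG13707 (3.78 ± 0.45), with 55 and 43 under Twist guides against 3 and 3 under Snail guides. nord, which encodes a secreted modulator of BMP signalling (3.42 ± 0.50), had 33 and 31 counts against 2 and 3. The carboxylesterase gene alpha-Est1 (3.15 ± 0.43) had 39 and 45 against 5 and 3. The fitted sizes for CG13707, nord and alpha-Est1 thus rest on few counts with Snail guides. nord, CG3376 and nvy lie on the same strand of chromosome 2R, between positions 24243255 and 24291084. Whether they respond as 1 region was not tested. sano (Serrano), which takes part in planar cell polarity, had 49.6 and 50.2 CPM with Twist guides against 11.9 and 11.3 CPM with Snail guides (2.11 ± 0.10; adjusted p = 2.8e-09).

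Of the 15 largest rises, twi included, 12 were called without each library in turn and by DESeq2, 15 after length correction and 14 in the fit of all 8 libraries. CG9416, at 3.43 and 8.23 CPM with Twist guides against 0.18 and 0.25 CPM with Snail guides, was not called without Snail replicate 1 (adjusted p = 0.081) or 2 (0.082). CG15658 (current symbol Lapsyn), a leucine-rich repeat gene of synapse assembly, was not called without Snail replicate 2 (0.059), and CG14298 was not called without Twist replicate 1 (0.16) or Snail replicate 1 (0.12).

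The genes that were lower with Twist guides, and thus higher with Snail guides, numbered fewer. qsm (listed in the tables under a former symbol; chromosome 2R, positions 20563034 to 20583591), a zona pellucida domain gene, stood at 1.07 and 0.147 CPM with Twist guides against 28.6 and 31.3 CPM with Snail guides, a log2 fold change of -5.62 ± 0.31 (adjusted p = 1.1e-06). The size of this difference rests on 14 and 2 counts with Twist guides: it was -7.58 without Twist replicate 1 and -4.80 without Twist replicate 2. Idgf4, a chitinase-like growth factor gene, stood at 0.914 and 1.1 CPM with Twist guides against 15.6 and 13.5 CPM with Snail guides (-3.83 ± 0.23; adjusted p = 6.4e-08). esg, a Snail family gene, stood at 0.61 and 1.03 CPM with Twist guides against 8.19 and 7.84 CPM with Snail guides (-3.26 ± 0.29; adjusted p = 3.5e-06). No overlap between the Twist and Snail libraries was a condition for the choice of these genes.

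CG32372 (current symbol ltl) was lower with Twist guides by -3.15 ± 0.40 and CG31808 by -2.51 ± 0.35; 15.8% of the exon bases of CG31808 overlap Cyt-c-d on the opposite strand. Ggamma30A, a G protein gamma subunit gene, had 2.29 and 1.4 CPM with Twist guides against 6.48 and 7.51 CPM with Snail guides (-1.92 ± 0.26; adjusted p = 0.00023). Its transcript is long (12225 bp), and the difference was -2.21 after length correction. CG1648 differed by -1.82 ± 0.29.

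The other 6 of the 15 largest falls, sna included among the 15, were low, at 0.0734 to 1.98 CPM with Twist guides and 0.834 to 5.34 CPM with Snail guides, and each was not called without at least 1 of the 4 libraries. The call of nompA, a gene of the dendritic cap of sense organs, failed without the Twist libraries (adjusted p = 0.065 without replicate 1, 0.18 without replicate 2) or Snail replicate 2 (0.056). That of CG31235 (current symbol naz) failed without either Twist library (0.057 without replicate 1, 0.056 without replicate 2) or Snail replicate 2 (0.14). Eaat1, a glutamate transporter gene, was lost without any of the 4 libraries (0.16 and 0.081 without the Twist libraries, 0.068 and 0.3 without the Snail libraries). CG34371 (current symbol side-V) missed the threshold without Twist replicate 2 (0.057) or Snail replicate 2 (0.085), the tetraspanin gene Tsp68C without Twist replicate 2 (0.083) or Snail replicate 1 (0.11) and in DESeq2 (0.082), and Timp without Snail replicate 2 (0.097). All 15 were called after length correction, and 12 in the fit of all 8 libraries.

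**Figure D3:**
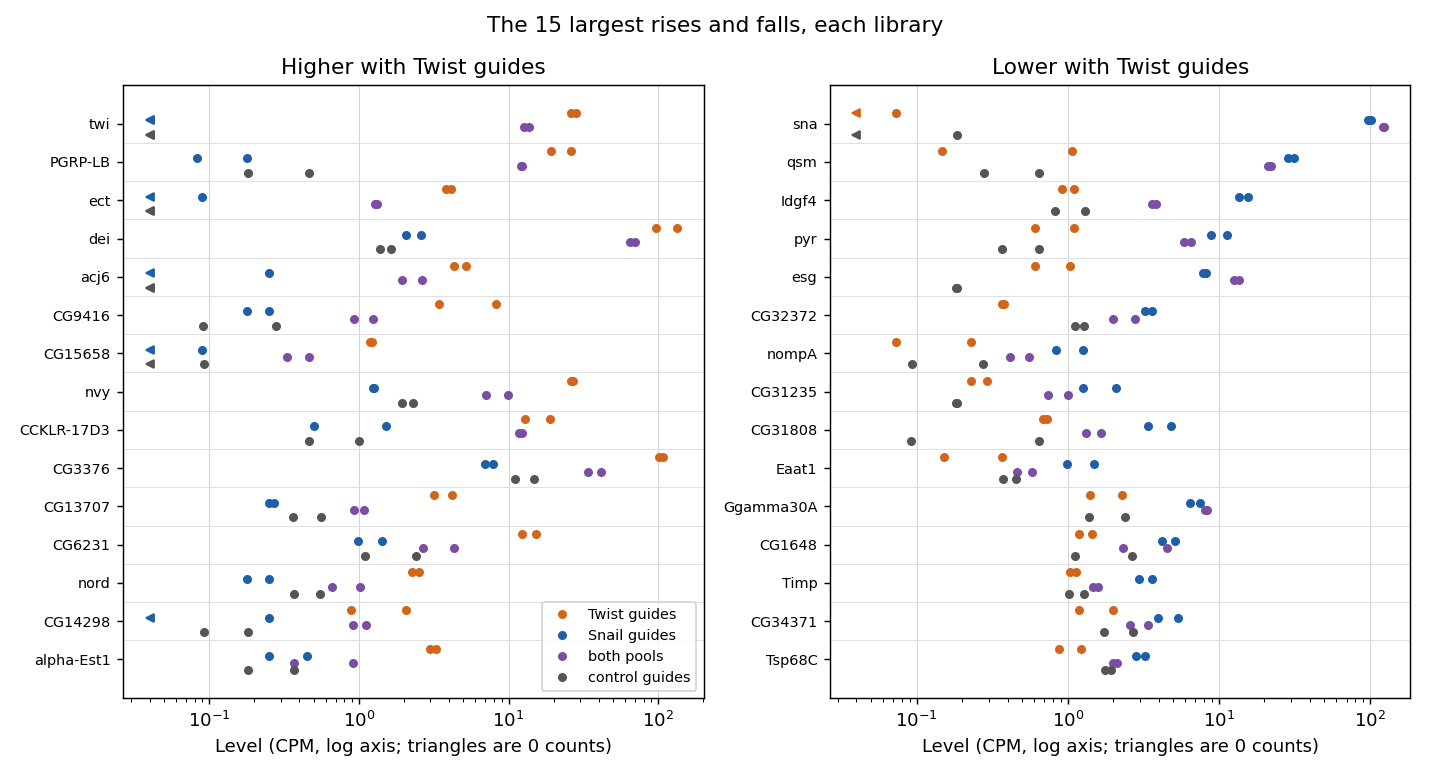
Level (CPM, log axis) of the 15 genes with the largest rises (left) and the 15 with the largest falls (right) between Twist and Snail guides, 1 point per library, with both pools and control guides below them in each row; triangles mark 0 counts. Genes whose Twist libraries (orange) and Snail libraries (blue) overlapped were left out when the 15 were chosen. Both-pool libraries (purple) often lie between the Twist and Snail libraries, as PGRP-LB does at 12.2 and 12.3 CPM.

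The control libraries took different places relative to the Twist and Snail libraries. Of the 60 genes more than 2-fold higher with Twist guides and without overlap, both control libraries lay at or below the higher Snail library in 21, between the groups in 13, at or above the lower Twist library in 0 and were split in 26. dei (1.65 and 1.39 CPM) and sano (7.23 and 7.05 CPM) were below both Snail libraries in control libraries, and PGRP-LB stood at 0.183 and 0.464 CPM there. nvy stood between, at 2.29 and 1.95 CPM in control libraries, above both Snail libraries. CG3376 did so too, at 11 and 14.8 CPM. Of the 20 genes more than 2-fold lower, both control libraries lay at or below the higher Twist library in 6, between the groups in 4, at or above the lower Snail library in 0 and were split in 10. ltl (CG32372) was among those between, with 1.28 and 1.11 CPM in control libraries, 0.381 and 0.367 CPM with Twist guides and 3.6 and 3.25 CPM with Snail guides. These genes were chosen on the Twist and Snail libraries, and the placements are a description without a test.

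With both pools present, intermediate levels were common. Both libraries with both pools lay between the groups for 34 of the 60 higher genes, at or above the lower Twist library for 12, at or below the higher Snail library for 5 and were split for 9. For the 20 lower genes these numbers were 13 between, 0 at or below the higher Twist library, 6 at or above the lower Snail library and 1 split. dei stood at 64.4 and 69.5 CPM and twi at 13.7 and 12.7 CPM with both pools, each between its Twist and Snail level. The other targeted gene, sna, stood at 124 and 122 CPM with both pools, above its 97.1 and 102 CPM with Snail guides alone. esg (12.6 and 13.5 CPM) and Ggamma30A (8.33 and 8.13 CPM) stood above both Snail libraries with both pools. Idgf4 stood at 3.83 and 3.6 CPM with both pools, well under its level with Snail guides alone. trol reached 45.6 and 39.5 CPM, inside or just below the Twist range.

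Receptor and ligand of mesodermal FGF signalling differed in opposite directions. htl, the receptor gene, had 19.9 and 18.1 CPM with Twist guides against 8.1 and 8.17 CPM with Snail guides, a log2 fold change of 1.23 ± 0.14 (adjusted p = 3.7e-05). pyr, a gene for an FGF ligand of Heartless, had 0.61 and 1.1 CPM with Twist guides against 8.91 and 11.4 CPM with Snail guides (-3.54 ± 0.29; adjusted p = 1.4e-06). In control libraries htl stood at 1.65 and 0.835 CPM and pyr at 0.366 and 0.649 CPM, so htl was above its control level under both guide pools and pyr mainly under Snail guides. Of 9 tested FGF pathway genes 1 was called higher, 1 lower and 7 were not called (median 0.07, against 0.003 over all genes tested), and after length correction the counts were the same (median -0.01). pnt, an ETS factor gene downstream of the receptors, stood at 0.11 ± 0.06 (adjusted p = 0.34), and csw (0.18) and dos (0.09), which relay receptor tyrosine kinase signals, did not pass either. Of 19 EGF receptor pathway genes 2 were called higher, against 7.06% of all genes tested, and 0 lower (median 0.07): the repressor gene aop (0.26 ± 0.06; adjusted p = 0.014) and the secreted antagonist argos (0.28 ± 0.07; adjusted p = 0.026). After length correction aop was not called (0.16; adjusted p = 0.13), argos had no length and was not in the fit, another member, edl, was higher (0.25; adjusted p = 0.049) and 1 was lower. Neither aop nor argos was called without Twist replicate 2 (0.061 for aop, 0.18 for argos), Snail replicate 1 (0.14 and 0.066) or Snail replicate 2 (0.14 and 0.26).

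Of 16 tested mesoderm genes with known Twist input, 6 were higher (against 7.06% of all genes tested), 1 (pyr) was lower (against 1.87%) and 9 were not called. The median was 0.24, against 0.003 over all genes tested. dei and htl, given above, and stg, given below, are among the 6. zfh1, a zinc-finger homeodomain factor gene of mesoderm and blood cells, had 327 and 325 CPM with Twist guides against 204 and 226 CPM with Snail guides (0.61 ± 0.07; adjusted p = 2.4e-05). how, an RNA-binding protein gene of mesoderm and tendons, had 127 and 120 CPM with Twist guides against 88.8 and 88 CPM with Snail guides (0.49 ± 0.07; adjusted p = 0.00018). Control libraries spanned 259 to 420 CPM for zfh1 and 98.1 to 137 CPM for how, a range that reaches above both Twist libraries. Mef2, the muscle factor gene, differed by 0.40 ± 0.08 and was not called without Snail replicate 1 (adjusted p = 0.059) or 2 (0.057) or after length correction (0.079). T48, a gene of apical constriction, stood at 0.25 ± 0.10 (adjusted p = 0.14). After length correction 4 were higher and 1 lower (median 0.25), and in the fit of all 8 libraries 2 were higher, htl and dei.

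Among genes that Snail is known to repress in the embryo, 2 of 9 tested were higher with Twist guides, 1 was lower and 6 were not called (median 0.17). Over all genes tested 7.06% were higher and 1.87% lower. crb, the apical determinant Crumbs, had 61.8 and 55.6 CPM with Twist guides against 38.3 and 38.3 CPM with Snail guides (0.62 ± 0.09; adjusted p = 0.00022; 0.42 after length correction, adjusted p = 0.0041). shg, the E-cadherin gene, had 22.6 and 28.2 CPM with Twist guides against 19 and 18.9 CPM with Snail guides (0.43 ± 0.12; adjusted p = 0.041). Control libraries stood at 36.2 and 69.3 CPM for crb and at 16.6 and 23.5 CPM for shg. The Snail levels of both genes lay within that control range, as did both Twist levels of crb. shg was not called without Twist replicate 2 (0.28), Snail replicate 1 (0.16) or 2 (0.18), in DESeq2 (0.20) or after length correction (0.24). brk, a repressor gene of Dpp targets, stood at 0.34 ± 0.10 (adjusted p = 0.051; 0.014 without Snail replicate 2), and sog, a Dpp antagonist gene, at -0.78 ± 0.32 (adjusted p = 0.16). The lower gene was pyr, so the member with the largest difference was higher, not lower, with Snail guides. The count of higher genes was 1 without Twist replicate 2, 1 without Snail replicate 1 and 0 in the fit of all 8 libraries, and without Twist replicate 1 the count of lower genes was 2. After length correction 1 was higher and 1 lower (median 0.11).

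In the list for the Snail family and cofactors, also written with earlier results known, 6 genes were tested. A different family member was high on each side. CG17181 (current symbol Kah), which encodes a zinc-finger protein of the family, had 48.2 and 39.8 CPM with Twist guides against 14.4 and 16 CPM with Snail guides (1.54 ± 0.11; adjusted p = 5.9e-07), while esg was lower, as given above. With control guides Kah stood at 16.7 and 15.8 CPM, near its Snail level. Of the other members gro (-0.10), ebi (0.04) and escl (-0.12) were not called, and the median was -0.03. The co-repressor gene CtBp, planned for this list, was not matched to a single symbol and was left out. After length correction the list again had 1 higher and 1 lower (median -0.05). Of 19 Twist partners and other bHLH genes 3 were higher and 0 lower (median 0.08): dei, gce, a juvenile hormone receptor gene (0.54 ± 0.08; adjusted p = 0.00064), and the repressor gene h (0.24 ± 0.07; adjusted p = 0.037). The call of h failed in DESeq2 (0.10), without Twist replicate 1 (0.20) and without Snail replicate 1 (0.30) or 2 (0.13). After length correction 3 were higher and 1 lower. Over all genes tested 7.06% were higher, and 4.6% after length correction.

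Matrix genes differed in both directions. Mmp1, a matrix metalloprotease gene, had 112 and 108 CPM with Twist guides against 50.7 and 49.5 CPM with Snail guides (1.14 ± 0.07; adjusted p = 6.4e-08), while Timp, which encodes an inhibitor of such proteases, had 1.14 and 1.03 CPM with Twist guides against 2.97 and 3.59 CPM with Snail guides (-1.58 ± 0.32; adjusted p = 0.0058). Timp lies close to counting limits, its exons overlap Syn on the opposite strand (15.7% of exon bases), and its call was lost without Snail replicate 2, as above. trol, the perlecan gene, had 50.8 and 40.8 CPM with Twist guides against 10.6 and 13.4 CPM with Snail guides (1.93 ± 0.13; 1.61 after length correction). LanA, a laminin alpha chain gene, had 1240 and 1110 CPM with Twist guides against 772 and 696 CPM with Snail guides (0.69 ± 0.07; 0.40 after length correction, adjusted p = 0.0036), beside 727 and 1750 CPM in control libraries. LanB1 differed by 0.31 ± 0.07 and was not called without Twist replicate 2 (0.064), Snail replicate 2 (0.13) or after length correction (0.18). Of 25 tested basement membrane, integrin and matrix protease genes 5 were higher, 2 (Timp and mspo) lower and 18 not called (median 0.13; median transcript 4483 bp against 2052 bp over all genes tested). After length correction the counts were 4 and 4, with a median of -0.01. Over all genes tested 7.06% were higher and 1.87% lower, and after length correction 4.6% and 2.14%. The higher count was 3 without Twist replicate 2, 3 without Snail replicate 2, 8 with the replicate number as a block and 2 in the fit of all 8 libraries, and the lower count was 1 without Snail replicate 1 and 0 without Snail replicate 2. Exons of Mmp1 overlap those of Pof on the opposite strand (5.87% of exon bases).

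Several genes of tendon and muscle attachment were higher with Twist guides. Of 12 tested, 5 were called higher, 0 lower and 7 not (median 0.32; 11 of 12 above 0). Over all genes tested 7.06% were higher, and 17.6% of those with transcripts of 4 to 8 kb, where the median length of this list lies (5409.5 bp). After length correction 4 were higher (median 0.15), against 4.6% over all genes. shot, a spectraplakin gene that links actin and microtubules, had 135 and 114 CPM with Twist guides against 71.2 and 62.7 CPM with Snail guides (0.90 ± 0.09). Its transcript is 27842 bp, the difference was 0.43 after length correction (adjusted p = 0.0024), and the control libraries stood at 65.6 and 281 CPM. kon, needed for muscle targeting to tendons, had 3.81 and 2.57 CPM with Twist guides against 0.81 and 1.17 CPM with Snail guides (1.67 ± 0.36; adjusted p = 0.0085). kon was not called without Twist replicate 1 (0.077) or Snail replicate 1 (0.098) or in DESeq2 (0.053). rhea, the talin gene, differed by 0.32 ± 0.07 and was not called without Snail replicate 1 (0.062) or 2 (0.056), without Twist replicate 1 (0.057) or after length correction (0.53). Without Snail replicate 1 the list's count was 3, and in the fit of all 8 libraries 2. The integrin beta chain gene mys stood at 0.07 ± 0.06 (adjusted p = 0.53).

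Of 16 tested muscle regulators and differentiation genes, 7 were higher and 0 lower (median 0.26; median transcript 4181 bp), against 7.06% higher over all genes and 17.6% from 4 to 8 kb. The list has 32 genes, and 2 of them had 0 counts in all 4 libraries. Other members left untested were near 0: Mhc reached 0.0834 CPM, Tm2 0.0734 CPM and Act57B 0.36 CPM. Among the called members, Tm1 stood at 423 to 503 CPM in the 4 libraries. mbc, a Rac activator gene of myoblast fusion, had 143 and 140 CPM with Twist guides against 89.1 and 78.7 CPM with Snail guides (0.76 ± 0.07; adjusted p = 6.4e-06). tmod, the tropomodulin gene, had 216 and 217 CPM with Twist guides against 153 and 141 CPM with Snail guides (0.56 ± 0.07; adjusted p = 5e-05). Zasp52, a Z-disc gene, differed by 0.52 ± 0.08 (adjusted p = 0.00097). These 3 were the ones called after length correction, which left 3 higher with a median of 0.05. Strn-Mlck (25666 bp) stood at 0.34 before and -0.11 after the correction. Without Twist replicate 1 the count was 4, without Snail replicate 2 it was 3, and in the fit of all 8 libraries it was 1, tmod. In control libraries tmod stood at 193 and 248 CPM, so its Snail level was the one below control.

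**Figure D4:**
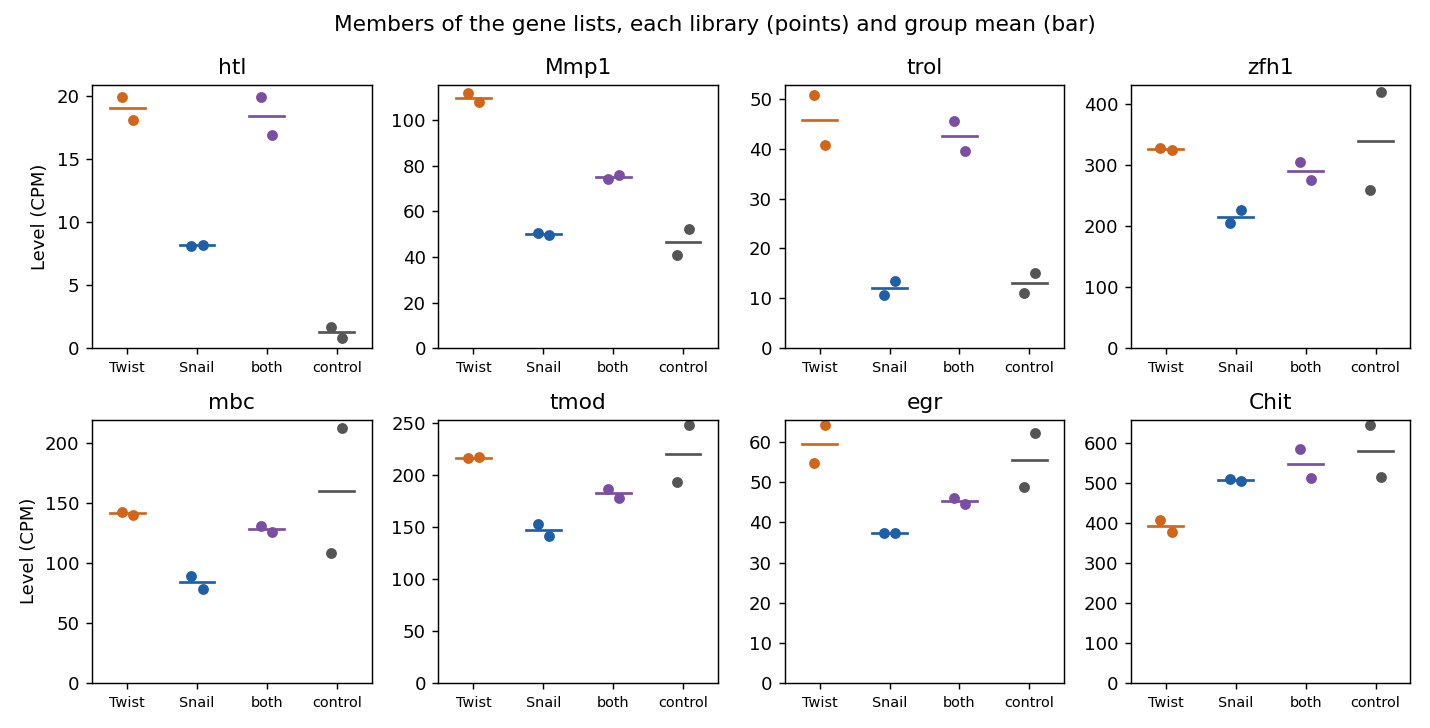
Level (CPM, vertical axes from 0) of 8 list members called in every fit that left out a library, with 1 point per library and a bar at the group mean, for Twist guides, Snail guides, both pools and control guides. htl is lowest in control libraries (1.65 and 0.835 CPM), Chit is lowest with Twist guides, and the 2 control libraries of mbc and zfh1 lie farther apart than those of any other group.

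Junction and polarity genes differed little. Of 32 tested, 7 were higher, 0 lower and 25 not called, and the median was 0.04 (median transcript 4657.5 bp). That count stands against 7.06% higher over all genes and 17.6% in the class of 4 to 8 kb. Besides crb and shg, cno, the afadin gene, stood at 0.37 ± 0.07 (adjusted p = 0.0019), and at 0.11 after length correction (adjusted p = 0.31). l(2)gl, a basolateral polarity gene, stood at 0.36 ± 0.07 (adjusted p = 0.005), and was not called without Twist replicate 2 (0.06) or Snail replicate 2 (0.10) or after length correction (0.079). After length correction 1 gene was higher, crb, and 2 were lower. The count higher was 3 without Snail replicate 1, 2 without Snail replicate 2, 3 in DESeq2 and 0 in the fit of all 8 libraries.

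Immune and blood cell genes other than PGRP-LB showed small differences. Of 18 tested innate immune genes 4 were higher and 0 lower (median 0.11), against 7.06% higher over all genes, and 4 were higher after length correction (against 4.6%). Rel, the NF-kappaB factor of the Imd pathway, had 145 and 154 CPM with Twist guides against 118 and 122 CPM with Snail guides (0.33 ± 0.07; adjusted p = 0.0052; 0.076 without Snail replicate 1). cact, the inhibitor of the Toll pathway's NF-kappaB factors (0.29 ± 0.07), and pirk, an inhibitor of the Imd pathway (0.27 ± 0.08), were the remaining calls. cact was lost in DESeq2 (0.11) and without Twist replicate 2 (0.16), Snail replicate 1 (0.14) or 2 (0.16), and pirk in DESeq2 (0.25) and without any 1 of the 4 libraries (0.10 and 0.09 without the Twist libraries, 0.17 and 0.33 without the Snail libraries). The count was 2 without Twist replicate 2, 1 without Snail replicate 1, 2 without Snail replicate 2 and 1 in the fit of all 8 libraries, where PGRP-LB remained; 1 gene was called lower without Twist replicate 2. Of 13 tested blood cell markers 4 were higher, against the same 7.06%, and 0 lower (median 0.20). The 4 were zfh1, ush, CG8193 (current symbol PPO2) and drpr. ush, a cofactor gene of GATA factors, differed by 0.45 ± 0.08 (adjusted p = 0.0021), PPO2 by 0.57 ± 0.15 (adjusted p = 0.033) and drpr by 0.40 ± 0.11 (adjusted p = 0.041). Neither PPO2 nor drpr was called in DESeq2 (0.21 and 0.27). srp stood at 0.20 ± 0.07 (adjusted p = 0.072). After length correction 2 were higher, zfh1 and PPO2, against 4.6%, with a median of 0.09. There ush was not called (adjusted p = 0.072). The summed level of the 22 markers was 2104 and 2100 CPM with Twist guides against 1760 and 1815 CPM with Snail guides, and its part in the other differences was not tested. The count was 2 without Twist replicate 2, without Snail replicate 1 or without Snail replicate 2, and 0 in the fit of all 8 libraries; 1 gene was called lower without Twist replicate 2.

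Some secreted lysosomal and chitinase-like genes were lower with Twist guides. Of 14 tested, 0 were higher and 3 lower (median -0.12, 2 of 14 above 0), and the same counts were found after length correction. Over all genes tested 1.87% were lower, and 2.14% after length correction. Besides Idgf4, Chit (current symbol Idgf6), another member of its family, had 408 and 377 CPM with Twist guides against 510 and 505 CPM with Snail guides (-0.36 ± 0.06; adjusted p = 0.0018). CG6206 (current symbol LManII), a lysosomal mannosidase gene, had 6.17 and 4.85 CPM with Twist guides against 10.8 and 10.4 CPM with Snail guides (-0.94 ± 0.18; adjusted p = 0.0035). In control libraries Chit stood at 646 and 517 CPM, above both groups. Cp1, the cathepsin L gene, stood at 2000 and 2250 CPM with Twist guides against 2360 and 2400 CPM with Snail guides and was not called (-0.16 ± 0.07; adjusted p = 0.22); control libraries had 3870 and 3300 CPM. Exons of Cp1 share 13.7% of their bases with CG42806 on the same strand. Without Twist replicate 1, 1 gene was called higher, and in the fit of all 8 libraries 1 was lower.

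Among JNK and cell death genes 4 of 18 tested were higher and 0 lower (median 0.04), against 7.06% higher over all genes, and 4 were higher after length correction (against 4.6%). Besides Mmp1, a known JNK target, they were egr, the TNF ligand gene, at 54.9 and 64.3 CPM with Twist guides against 37.4 and 37.5 CPM with Snail guides (0.68 ± 0.09; adjusted p = 0.00022), Ark, the Apaf-1 gene (0.58 ± 0.08; adjusted p = 0.00018), and rpr, a caspase activator gene (0.41 ± 0.12; adjusted p = 0.042). rpr was not called in DESeq2 (0.20), without Snail replicate 2 (0.45) or without either Twist library (0.061 without replicate 1, 0.22 without replicate 2). puc, a feedback target of JNK signalling, stood at 0.12 ± 0.06 (adjusted p = 0.31). The fit of all 8 libraries called 2. For the next list, the shares over all genes tested are 1.87% lower, and 2.14% after length correction. Of 18 heat shock and unfolded protein genes 0 were higher and 3 lower (median -0.07, 1 of 18 above 0): Hsp26, with 93.4 and 88.9 CPM under Twist guides against 124 and 120 CPM under Snail guides (-0.41 ± 0.07; adjusted p = 0.00078), Hsp23 (-0.37 ± 0.08; 0.076 without Twist replicate 1, 0.16 without Snail replicate 1) and crc, the ATF4 gene (-0.26 ± 0.07; 0.26 without Twist replicate 2, 0.19 without Snail replicate 1, 0.063 without Snail replicate 2, 0.051 after length correction). Without Snail replicate 1 the count was 1, in the fit of all 8 libraries 0 and after length correction 2 (median -0.09).

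Ribosomal protein genes of the cytosol (83 tested, with a short median transcript of 877 bp) had a median of -0.15, with 4 of 83 above 0. Of these 16 were lower and 0 higher, against 1.87% lower over all genes tested. RpL21 had 3330 and 3170 CPM with Twist guides against 4160 and 3960 CPM with Snail guides (-0.32 ± 0.07; adjusted p = 0.0071), but its adjusted p was 0.11 without Twist replicate 2, 0.06 without Snail replicate 1 and 0.066 after length correction. The summed level was 161900 and 152400 CPM with Twist guides against 171500 and 181700 CPM with Snail guides. The count of lower genes was 8 without Twist replicate 1, 1 without Twist replicate 2, 3 without Snail replicate 1, 3 without Snail replicate 2, 5 with the replicate number as a block, 2 after length correction (median -0.10) and 0 in the fit of all 8 libraries. Without Twist replicate 2 or Snail replicate 2, and with the block, 1 member was higher. RpS19b, RpS5a, RpS10b, RpS15Aa and RpS28b, among the 16, have paralogs in the list between which the counting could have split reads.

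The cell cycle, Notch and ecdysone lists had 1 or 2 calls each, against 7.06% higher and 1.87% lower over all genes tested. Of 29 tested cell cycle genes 1 was higher, stg, the Cdc25 gene (0.31 ± 0.09; adjusted p = 0.045), and 0 lower (median -0.01), and stg missed the threshold without Twist replicate 2 (0.28), Snail replicate 1 (0.07) or 2 (0.34), with library size alone (0.06), in DESeq2 (0.11) and after length correction (0.064). Of 13 Notch pathway genes 2 were higher and 0 lower (median 0.14), H, the Hairless co-repressor (0.30 ± 0.07), and fng, a glycosyltransferase gene (0.87 ± 0.25). After length correction H was not called (0.16; adjusted p = 0.17), which left fng (0.88; adjusted p = 0.047) and a median of 0.01. fng was not called without any 1 of the 4 libraries (0.077 and 0.12 without the Twist libraries, 0.18 and 0.29 without the Snail libraries), and of these 4 fits H was called in the one without Twist replicate 2 (0.025). The Notch count was 1 without Twist replicate 1, from neither of these genes, 1 without Twist replicate 2 and 0 without Snail replicate 1 or 2, in DESeq2 and in the fit of all 8 libraries. Of 14 ecdysone response genes 1 was higher, ImpL2, which encodes an insulin-binding protein (0.31 ± 0.07; adjusted p = 0.0085; 0.08 without Twist replicate 1, 0.11 without Snail replicate 1), and 0 lower (median 0.15; 0.02 after length correction).

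Some markers of other tissues were called. Over all genes tested 7.06% were higher and 1.87% lower, and after length correction 4.6% and 2.14%. Of 9 tested neuronal and glial markers, acj6 and moody, a receptor gene of the blood-brain barrier (0.47 ± 0.09; adjusted p = 0.0036; 0.053 without Snail replicate 1), were higher and 0 were lower (median 0.01; -0.12 after length correction, with 2 higher and 1 lower). nrv3 stood at -0.40 ± 0.13 (adjusted p = 0.08; 0.026 without Twist replicate 1; 0.032 after length correction). VGlut, Rdl, scrt and ase had 0 counts in all 4 libraries, and elav stood at 7.09 to 8.67 CPM. Of 17 tested germline and ovarian soma markers 3 were higher and 0 lower (median 0.02): zfh1, osk (0.54 ± 0.11; adjusted p = 0.0058; 0.061 without Twist replicate 1, 0.072 without Snail replicate 2) and armi, a piRNA pathway helicase gene (0.27 ± 0.06; 0.074 without Snail replicate 1, 0.19 without Snail replicate 2, 0.058 after length correction, which left 2). Without Snail replicate 2 that count was 1, and in the fit of all 8 libraries 0. Of 3 tested fat body and midgut markers esg was lower and 0 were higher, also after length correction; 1 was called higher without Twist replicate 1, and 4 of the 17 markers in the tables had 0 counts in all 4 libraries.

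**Figure D5:**
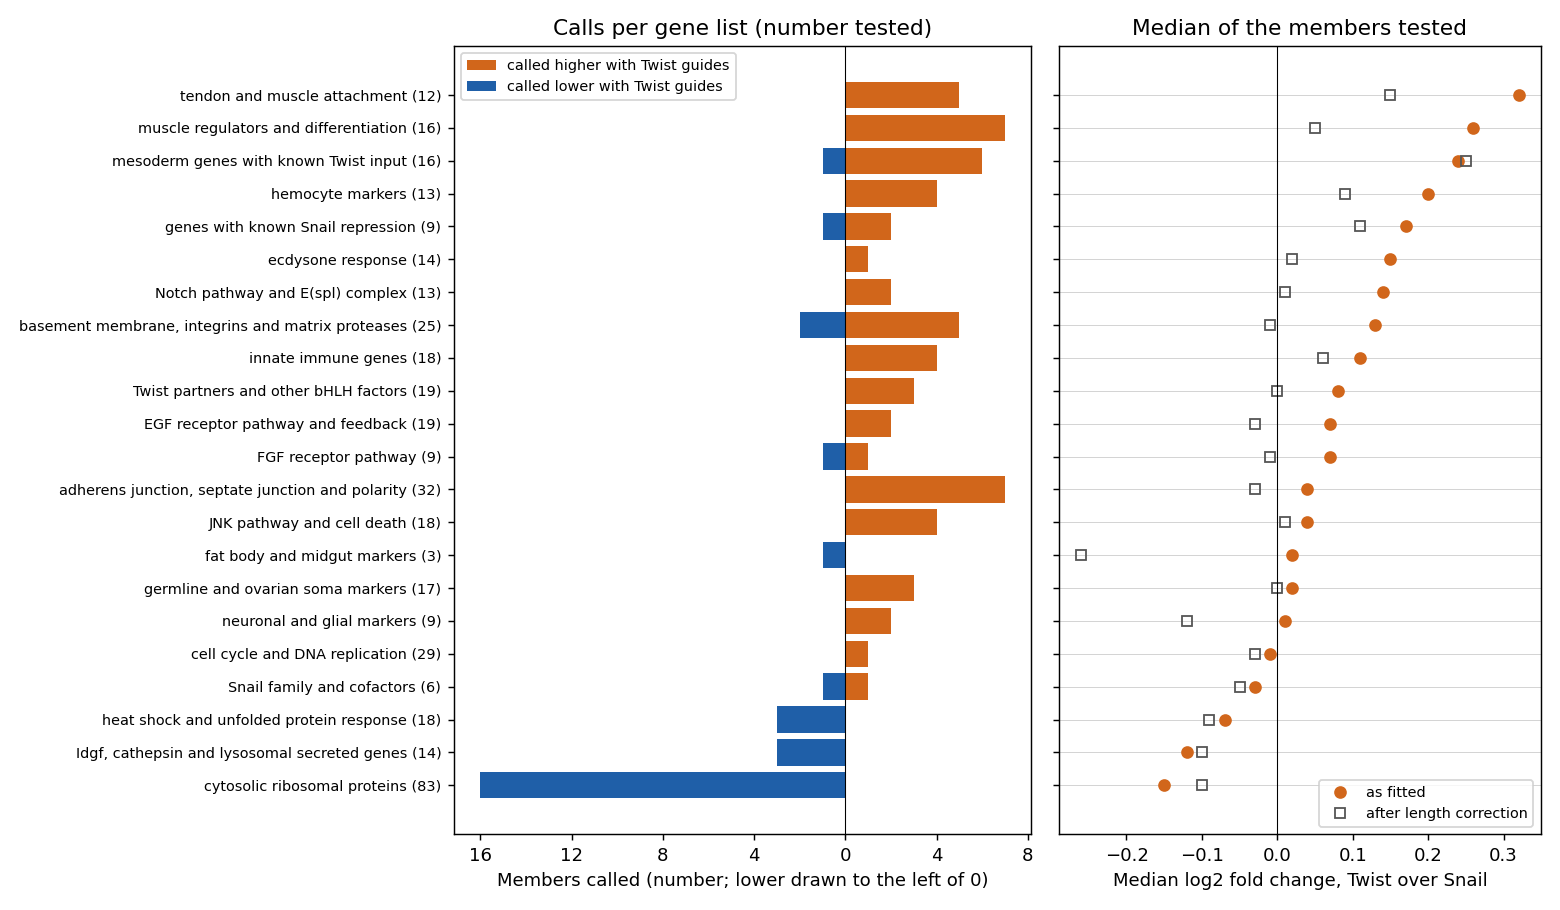
Left, number of members called higher (orange, right of 0) and lower (blue, left of 0) with Twist guides in each of the 22 gene lists, with the number tested in parentheses; right, median log2 fold change (Twist over Snail) of the members tested, as fitted (circles) and after length correction (squares). Tendon and muscle lists have the highest medians (0.32 and 0.26) and ribosomal protein genes the lowest (-0.15), and the muscle median moves to 0.05 with the correction.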

How the data were processed

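The authors deposited a table for each library that lists read counts by gene symbol, not normalized. The submitters' processing notes name TopHat2 (version 2), Bowtie2, HTSeq and DESeq without order or role, and these sources do not give the genome build, annotation or strand setting. Symbols (14161) were matched to Ensembl 115 (BDGP6.54) by current symbol (10669) or by a synonym (2955), with 537 unmatched; coordinates and longest transcript lengths come from there.

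The 4 libraries were fitted with edgeR 4.0.16 in R 4.3.3: filterByExpr with min.count 10, which kept 7895 genes, dropped 6266 and retained at least 99.94% of counts, TMM factors, and a robust quasi-likelihood fit on group (residual degrees of freedom 2, prior 12.9 at the median; biological coefficient of variation 0.053 in common). SEs were derived from the F statistic. Printed CPM use TMM factors over all 8 libraries. p-values measure only the spread between these samples. Floors are 3 counts over a group, and intervals (95%) and floors cover counting error only. DESeq2 1.42.0 was the other tool, and plots used Python 3.11.15 with matplotlib 3.10.9. Length correction removed a lowess trend (span 0.3) of log2 CPM (prior count 2) on log2 transcript length from each library, relative to the 4-library mean, through offsets (7679 genes with a length, 97.3% of those tested); it also removes any true difference that follows length. The edgeR fit without length correction was tested on simulated counts. The length correction itself was not tested in that way.

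Named genes are twi and sna, the 15 largest rises and falls among called genes without overlap and with a mean of at least 1 CPM in the higher group, the 5 smallest p in each direction, and, from 22 gene lists, the called members and up to 3 others with the smallest p (162 genes, 99 called). Members, lists and tests were chosen with earlier results of these data known. Some genes belong to more than 1 list. The main fit took the samples as unpaired. The deviations of same-numbered Twist and Snail libraries had a correlation across genes of -0.06. A single correlation does not settle whether the numbers pair the samples, and it cannot exclude a shared batch.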

Additional observations from a re-analysis of the deposited data

How the results depend on the processing

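The comparison made 705 calls, 557 higher and 148 lower. Leaving out a library gave 305 to 682 calls, 255 to 486 higher and 41 to 196 lower. DESeq2 called 420 (339 higher, 81 lower), glmTreat against a fold of 1.5 called 55 (46 and 9), an FDR of 0.01 left 317 (285 and 32), and all 8 libraries gave 87 (65 and 22). The 6 libraries without controls gave 839 calls, 231 of them lower, no filter gave 999 with 287 lower, and length correction left 353 higher. With the replicate number as a block 825 were called, and the correlation of -0.06 does not settle whether the numbers pair the samples. twi and sna stayed called in each setting. Of the named genes called, 35 of 98 remained with all 8 libraries, 65 of 98 after length correction and 52 to 70 without 1 library. With length correction the sign turned for Strn-Mlck (-0.11), Msp-300 (-0.26), csw (-0.02), dos (0), mys (-0.01), N (-0.12), dm (-0.05), EcR (-0.01), br (-0.06) and Rfabg (-0.26); Rfabg, 0.02 with all 4 libraries and -0.22 to 0.24 without 1 of them, also turned without Twist replicate 1 or Snail replicate 2 (-0.17). Of these Strn-Mlck alone had been called. The cause of these changes was not tested. With 2 libraries a group, small differences rest on a pooled spread.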

Other observations

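A further 37 genes were called more than 2-fold higher with Twist guides, and 24 of them were also called without each library in turn and by DESeq2. The genes named here were chosen after their values were seen. btn (buttonless), a homeobox gene of dorsal median cells, a small mesodermal cell group of the embryo, had 15.5 and 19.7 CPM with Twist guides against 2.25 and 2.34 CPM with Snail guides (log2 fold change 2.94, SE 0.20; edgeR adjusted p = 2.6e-07). RhoL, a small GTPase gene that blood cells need to migrate, had 87.1 and 96.8 CPM with Twist guides against 38.3 and 34 CPM with Snail guides (1.36, SE 0.09; adjusted p = 1.1e-07). rut, an adenylyl cyclase gene, had 59 and 51.8 CPM with Twist guides against 22.1 and 22.8 CPM with Snail guides, and zormin, a gene for a titin-like protein of muscle, had 36.2 and 26.9 CPM with Twist guides against 13.9 and 14.6 CPM with Snail guides. These 4 genes were also called after length correction and in the fit of all 8 libraries.

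Dscam, a gene for an immunoglobulin receptor of neurons and blood cells with a transcript of 9145 bp, had 300 and 267 CPM with Twist guides against 131 and 131 CPM with Snail guides, and 320 and 320 CPM with both pools. Its control libraries stood at 137 and 324 CPM, one near the Snail level and one above both Twist libraries. Nf1, a Ras inhibitor gene with a transcript of 9737 bp, had 42.7 and 33.3 CPM with Twist guides against 20 and 15 CPM with Snail guides, beside 23.9 and 65.8 CPM in control libraries. Both genes were called after length correction and neither in the fit of all 8 libraries. Another 5 genes were more than 2-fold lower with Twist guides, among them the receptor gene Toll-7 (-1.16, SE 0.26), and 0 of the 5 were called without each library in turn and by DESeq2.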
